A study of Homo sapiens with 16 samples.

Results

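Genes for the protein part of the mitochondrial ribosome were followed in stranded RNA-seq of 2 human papillary thyroid carcinoma lines, TPC1 and K1. The genes were chosen by name, as the rows of the count table whose symbol is MRPL or MRPS with a number and, in some, a letter A, B or C, and 77 of 25369 rows met this rule. The naming rule itself uses no measured value, but the family and the further lists below were chosen with earlier results of these data known. Of the 77, 50 encode proteins placed in the large subunit and 26 in the small subunit. The remaining gene, MRPS36, was once counted with the small subunit and is now assigned to a metabolic enzyme complex. Each line was treated for 24 h in 4 ways, with 2 libraries per group and 16 in all. The treatments were 0.2% DMSO as vehicle, 10 µM nutlin, which frees p53 from its repressor MDM2, 25 µM GSK2830371, which inhibits the phosphatase PPM1D, and both drugs together, here called the combination. The study asked how blocking both p53 repressors changes expression compared with blocking either alone. Both are established lines grown in culture. The labels do not say whether the libraries of a group came from separate cultures, while the study's reporting summary describes its replicates in general as independently prepared.

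The mitochondrial ribosome translates the few membrane proteins of oxidative phosphorylation that mitochondrial DNA encodes. Its RNA is made inside the organelle, whereas every one of its proteins is encoded in the nucleus, made on cytosolic ribosomes and imported. Some of these proteins have bacterial counterparts and others are found only in mitochondria, where they enlarged the protein shell as the RNA shrank. Their genes are expressed in all nucleated cells, and binding sites for the factors NRF1, GABP (an ETS family factor) and YY1 are a known feature of promoters of nuclear genes for mitochondrial proteins. Of the 77 genes, 44 encode proteins with a bacterial counterpart, 29 encode mitochondria-specific proteins and 4 were not classed.

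Library totals ran from 30789887 to 76648552 counts in TPC1 and from 28888686 to 37161241 in K1. Under nutlin, CDKN1A and MDM2, which p53 activates directly, rose by 5.61 ± 0.141 and 4.96 ± 0.106 (log2 fold change ± SE) in TPC1 and by 3.16 ± 0.0613 and 3.05 ± 0.0682 in K1. Of 8 thyroid follicular markers, 3 in TPC1 and 4 in K1 were above 1 CPM (counts scaled to a common library total). PAX8 was at 280 CPM or more in every library, while TSHR was at 0 in all of them. Of 5 epithelial markers 2 were above 1 CPM, KRT8 at 299 CPM or more, while CDH1 did not pass 0.0692 CPM. Summed fibroblast markers (5 genes) stayed between 3.39 and 19.7 CPM, immune markers (4 genes) between 0 and 4.56 CPM and endothelial markers (3 genes) between 0 and 0.796 CPM, with PTPRC at 0.0628 CPM or less. The TPC1 columns carry replicate numbers 1 and 3, whereas the labels number these samples 1 and 2, and the column numbers are used here.

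Promoter sequence was available from RefSeq (GRCh38.p14) for 68 of the 77 genes, as windows from 250 bases before to 50 bases after the annotated start. An ETS motif (CCGGAAG, either strand) occurred in 28 of the 68 windows, or 41.2%, compared with 14.2% of 15843 protein-coding promoters and 10.7% of all 27305 promoters. A YY1 motif (AAGATGG) occurred in 33.8% against 6.4% and 6.06%, and an NRF1 motif (GCGCATG) in 10.3% against 5.87% and 4.67%. The E-box CACGTG, the core site of MYC and related factors, was found in 8.82% against 8.88% and 7.43%, and CCAAT, the NF-Y core, in 29.4% against 36.4% and 35.7%. None of the 5 motifs contains another, and both strands were searched for each. A match describes the letters in the window and is not evidence of binding.

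The stretches before the annotated start are given for 6 genes, 4 of which fell under nutlin in TPC1 and 2 of which rose in both lines. Letters in capitals are matches to the motifs above. MRPL17 (chr11:6683341-6683490, minus strand) holds NRF1 motifs, MRPS34 (chr16:1773135-1773284, minus strand) holds 3 ETS motifs in reverse orientation, and MRPS12 (chr19:38930794-38930943, plus strand) holds 3 CCAAT boxes. MRPL12 (chr17:81703217-81703366, plus strand) and MRPL39 (chr21:25607482-25607631, minus strand) hold none of the 5 in the printed bases. Of MRPL49 (chr11:65122135-65122182, plus strand) only 48 bases are given, because the gene FAU starts 49 bases away on the other strand. The full window of MRPS12 also held ETS and YY1 motifs, and that of MRPL49 held YY1 and E-box motifs.
MRPL17: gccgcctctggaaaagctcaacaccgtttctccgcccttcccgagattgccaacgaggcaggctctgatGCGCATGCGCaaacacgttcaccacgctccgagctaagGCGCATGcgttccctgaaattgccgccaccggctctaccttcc
MRPS34: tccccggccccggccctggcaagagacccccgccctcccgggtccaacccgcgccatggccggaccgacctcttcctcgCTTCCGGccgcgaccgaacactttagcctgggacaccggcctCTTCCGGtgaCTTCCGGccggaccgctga
MRPS12: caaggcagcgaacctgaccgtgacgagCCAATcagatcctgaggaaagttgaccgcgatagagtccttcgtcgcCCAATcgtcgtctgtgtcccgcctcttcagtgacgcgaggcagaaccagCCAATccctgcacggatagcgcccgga
MRPL12: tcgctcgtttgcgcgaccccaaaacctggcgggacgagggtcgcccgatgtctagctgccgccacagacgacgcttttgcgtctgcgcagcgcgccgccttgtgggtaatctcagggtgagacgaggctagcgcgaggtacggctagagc
MRPL39: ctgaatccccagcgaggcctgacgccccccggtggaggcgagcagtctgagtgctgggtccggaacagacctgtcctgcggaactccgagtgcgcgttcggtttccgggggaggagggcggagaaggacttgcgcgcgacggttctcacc
MRPL49: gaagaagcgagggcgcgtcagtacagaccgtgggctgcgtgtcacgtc

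All 77 genes were expressed in every library. The lowest count of any of them in any library was 376, mean levels ran from 14.7 to 145 CPM with a median of 44.4 CPM, and each passed the filter on low values. Per kilobase of summed exon length, vehicle-treated TPC1 cells had MRPL12, MRPL41 and MRPS34 highest, at 135, 130 and 91.2 CPM per kb. MRPL12 is the stalk protein that recruits translation factors. K1 had MRPS34, MRPL41 and MRPL51 highest, at 108, 94.9 and 90.7 CPM per kb. MRPL42 was lowest in both lines, at 2.5 and 1.58 CPM per kb, over an annotated exon length of 16368 bases. Its level not divided by length was 39.9 and 41.9 CPM in the TPC1 vehicle libraries. The upper and lower quartiles of the genes differed 3.17-fold in TPC1 and 3.04-fold in K1. With canonical transcript lengths, an alternative chosen after the data were seen, MRPL24 was highest in TPC1 at 146 CPM per kb and MRPL51 in K1 at 140.

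In TPC1, nutlin lowered most of the family. In the quasi-likelihood test of edgeR, adjusted over 15273 genes by the Benjamini-Hochberg method, 44 of the 77 genes fell at an adjusted p under 0.05 and 5 rose, compared with 28.3% of all tested genes falling and 27.3% rising. The median log2 fold change was −0.34, against 0 for all tested genes. With the further condition of a change above 1.5-fold, 14 fell (background 18%) and 2 rose (background 17.5%), so the share that fell was above the background at any size of change and near it for changes above 1.5-fold. In 46 genes both nutlin libraries lay below both vehicle libraries and in 7 they lay above (background 36.8% and 40.5%). RNA from bulk cells gives relative levels, in which fewer transcripts per cell and fewer cells of a kind cannot be told apart.

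Summed over the 77 genes, the TPC1 vehicle libraries held 4397 and 5286 CPM, the nutlin libraries 3953 and 4216, the GSK2830371 libraries 4072 and 4585 and the combination libraries 3829 and 4211. The vehicle libraries differed widely, and those given nutlin or the combination were below both of them. The nutlin mean was 84.3% and the combination mean 83% of the vehicle mean. Cytosolic ribosomal protein genes moved the other way, with sums of 62185 and 77933 CPM in vehicle, 87457 and 91651 in the nutlin libraries and 99245 and 114426 in the combination libraries. Subunits of the respiratory chain encoded in the nucleus, the complexes that the mitochondrial ribosome serves, summed to 107% of vehicle under nutlin and 99.1% under the combination. In K1 the family summed to 3817 and 3996 CPM in vehicle, 3659 and 3799 under nutlin, 4025 and 3849 under GSK2830371 and 3637 and 3543 under the combination. With this scaling the combination libraries were below both K1 nutlin libraries and both vehicle libraries. Scaled by library size alone, the combination libraries held 3725 and 3677 CPM and overlapped the nutlin libraries at 3698 and 3767. Both stayed below the vehicle libraries, at 3847 and 4032.

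**Figure D1:**
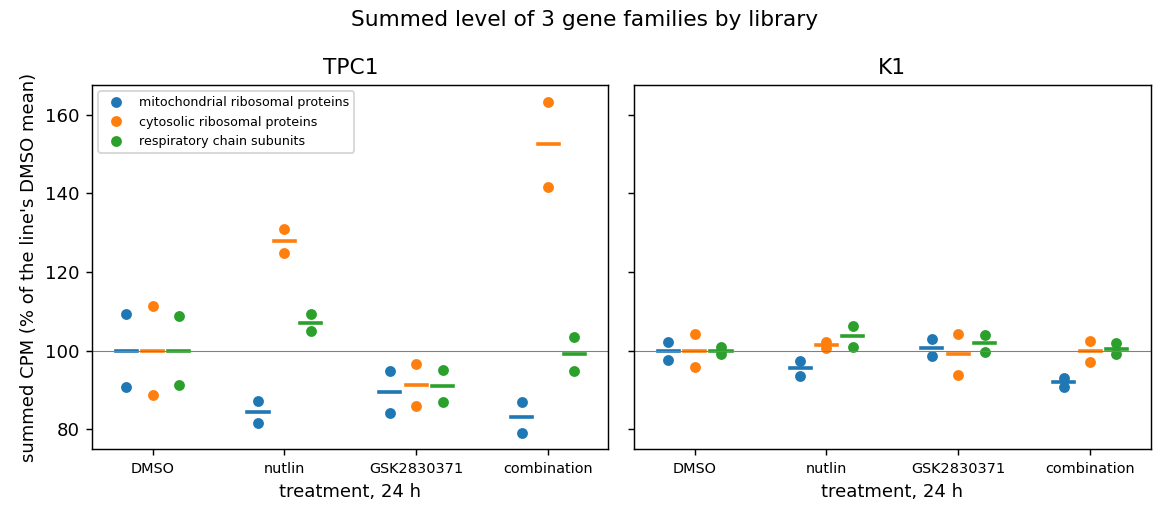
Summed CPM of the mitochondrial ribosomal protein genes (77), the cytosolic ribosomal protein genes and the respiratory chain subunit genes in each library, as a percentage of the vehicle mean of the same line (vertical axis), by treatment (horizontal axis); points are libraries and bars are means of 2. In TPC1 the mitochondrial ribosomal family averaged 84.3% of vehicle under nutlin and 83% under the combination while the cytosolic family averaged 128% and 152%, and in K1 all means lay between 91.9% and 104%.

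The largest decrease under nutlin in TPC1 was that of MRPL17 (chr11:6701616-6704571 in GRCh37, minus strand), a large subunit protein with a bacterial counterpart and the gene with NRF1 motifs printed above. It measured 69.6 and 90.4 CPM in vehicle and 35.9 and 39.9 CPM under nutlin, a log2 fold change of −1.11 ± 0.133 (SE, edgeR adjusted p = 9.5e-05). The vehicle libraries differed more from each other than the nutlin libraries did, and the groups did not overlap. MRPS34 (chr16:1821891-1823151, minus strand), a mitochondria-specific protein of the small subunit, measured 87.4 and 112 CPM in vehicle and 54.3 and 53 CPM under nutlin (−0.93 ± 0.109, edgeR adjusted p = 8.2e-05). MRPS2 (chr9:138391830-138396519, plus strand), of the small subunit, went from 143 and 171 CPM to 83.1 and 90.7 CPM (−0.89 ± 0.102, edgeR adjusted p = 7.2e-05). In these 3 genes every nutlin library was clearly below every vehicle library.

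MRPL3, which in the large subunit reaches toward the site of peptide bond formation, had 148 and 189 CPM in vehicle and 85.3 and 107 CPM under nutlin (−0.84 ± 0.153, edgeR adjusted p = 0.0013). MRPL12, the stalk protein, had 120 and 153 CPM in vehicle and 75.9 and 84 CPM under nutlin (−0.81 ± 0.131, edgeR adjusted p = 0.00065). The other 9 genes that fell by more than 1.5-fold were MRPS6, MRPL4, MRPS12 of the decoding centre, MRPS26, MRPL1, MRPL21, MRPL35, MRPL55 and MRPL37, with log2 fold changes from −0.73 to −0.61. A further 30 genes fell by less.

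Against this direction, MRPL49 and MRPL39, both mitochondria-specific proteins of the large subunit, rose. MRPL49 (chr11:64889655-64894843 in GRCh37, plus strand) measured 77 and 87.9 CPM in vehicle and 147 and 142 CPM under nutlin (0.78 ± 0.0801, edgeR adjusted p = 3.7e-05). MRPL39 (chr21:26957968-26979829, minus strand) measured 19 and 21.6 CPM in vehicle and 31.7 and 32.9 CPM under nutlin (0.63 ± 0.0962, edgeR adjusted p = 0.00044). Both were well above their vehicle libraries, by more than the libraries of a group differed. MRPL27, MRPL28 and MRPL10 rose by smaller amounts, with log2 fold changes of 0.37, 0.35 and 0.33. The remaining 28 genes did not pass the test, among them MRPS36, the gene no longer placed in the ribosome, at 12.3 and 14.3 CPM in vehicle and 13.4 and 12.8 CPM under nutlin.

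The decreases were found in both subunits and in proteins of both origins. Of large subunit genes 27 of 50 fell and 5 rose, with a median of −0.32, and of small subunit genes 17 of 26 fell and none rose, with a median of −0.35. Of genes with a bacterial counterpart 26 of 44 fell and 3 rose, and of mitochondria-specific genes 17 of 29 fell and 2 rose. The ratio of summed large to summed small subunit CPM, which does not depend on how libraries were scaled, was 1.85 and 1.87 in TPC1 vehicle, 2.01 and 2.02 under nutlin, 1.82 and 1.84 under GSK2830371 and 1.99 and 2.02 under the combination. In K1 it was 2.02 and 2 in vehicle, 2.08 and 2.09 under nutlin, 2 and 2.01 under GSK2830371 and 2.07 and 2.1 under the combination. In both lines the nutlin and combination libraries were above the vehicle libraries, a difference that was not tested.

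Counts in TPC1 depended on single libraries, in refits that had no replicate term. Leaving out 1 library also unpairs its replicate number, and how much of a shift comes from this was not tested. Counts of these refits have no share over all tested genes beside them. They cannot show whether the family shifted more than other genes. Without vehicle replicate 3, 29 genes fell under nutlin, 7 of them by more than 1.5-fold, and the median was −0.16. Without nutlin replicate 1, 28 genes fell. MRPL17, MRPS34, MRPS2, MRPL3, MRPL12, MRPL49 and MRPL39 each kept their direction and an adjusted p under 0.05 in every such refit, with MRPL17 between −1.26 and −0.91 and MRPL49 between 0.71 and 0.87, whereas MRPL27 had an adjusted p of 0.1 without nutlin replicate 1 and 0.062 without vehicle replicate 1.

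**Figure D2:**
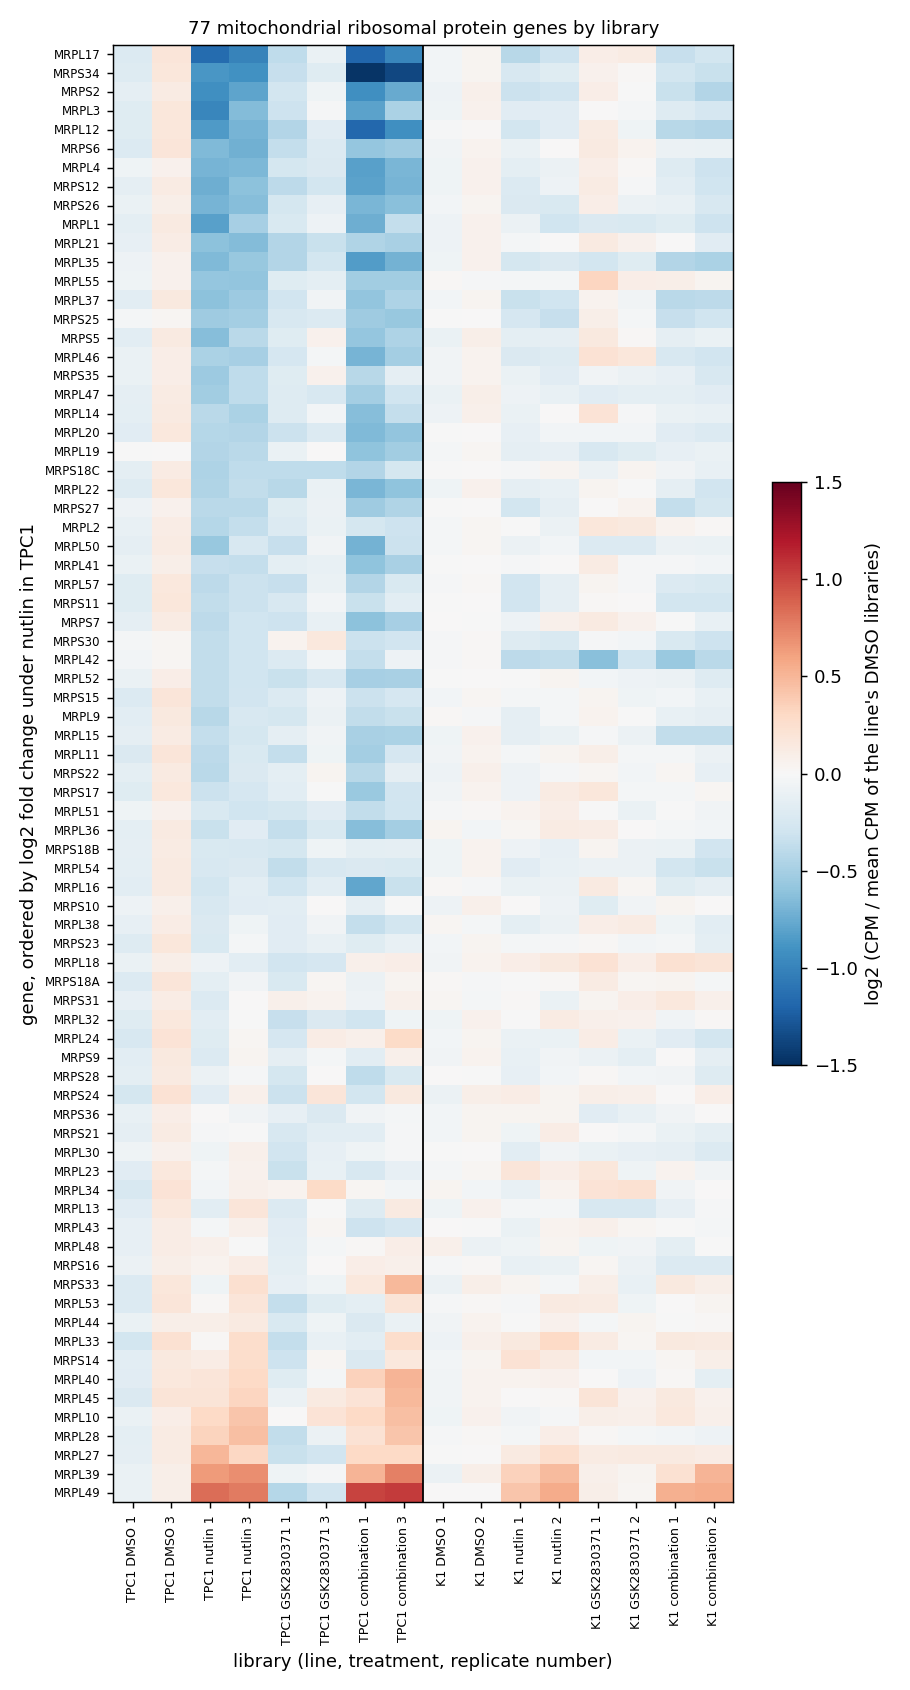
Log2 ratio of each of the 77 genes (rows, ordered by log2 fold change under nutlin in TPC1) in each of 16 libraries (columns) to the mean CPM of the vehicle libraries of the same line, on a colour scale from −1.5 to 1.5. The TPC1 nutlin and combination columns are lower over most rows, with MRPL49 and MRPL39 at the other end, and the K1 columns show weaker shifts.

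For GSK2830371 alone in TPC1 the count depended on whether the pairing of replicates entered the fit. With the replicate number as a block (TPC1 libraries of the same number deviated together) 32 of 77 genes fell and 0 rose, where 11.4% and 10.6% of all tested genes did in that fit. Without the block, as in the other counts given here, 2 of 77 genes fell at an adjusted p under 0.05, compared with 1.64% of all tested genes, and none rose, compared with 1.87%. At an unadjusted p under 0.05, 20 were lower and 0 higher, and DESeq2 called 3 lower and 0 higher, both without a share over all tested genes. None changed by more than 1.5-fold (background 0.681% down and 0.72% up), and in 25 genes both treated libraries lay below both vehicle libraries and in 1 above (background 24% and 23.9%). MRPL21 measured 32 and 37.5 CPM in vehicle and 25.7 and 27.5 CPM under GSK2830371 (−0.38 ± 0.0844, edgeR adjusted p = 0.045). MRPL49, which rose under nutlin, measured 61.2 and 67.6 CPM here (−0.35 ± 0.0802, edgeR adjusted p = 0.049). The call of MRPL49 was lost in each of the 8 refits that left out a TPC1 library, and that of MRPL21 in all but those without vehicle replicate 1 or combination replicate 3. The family median was −0.16, or −0.04 without vehicle replicate 3. With a correction for GC content and length and no block 9 fell (background 6.39%).

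The combination gave a pattern of the same size as nutlin in TPC1. These comparisons share their vehicle libraries, so their values are given side by side and their likeness is not a result. With edgeR, 43 genes fell and 5 rose (background 32.1% and 32%), of which 14 and 2 changed by more than 1.5-fold (background 21.7% and 22.5%), and the median was −0.33. The groups did not overlap in 46 lower and 7 higher genes (background 37.9% and 40.5%). MRPS34 was the most reduced, at 35.9 and 38.8 CPM against 87.4 and 112 CPM in vehicle (−1.44 ± 0.11, edgeR adjusted p = 3.6e-06). MRPL17 was at 35.2 and 40.5 CPM (−1.1 ± 0.132, edgeR adjusted p = 7.2e-05) and MRPL12 at 60.2 and 72 CPM (−1.07 ± 0.132, edgeR adjusted p = 8.4e-05). In each of the 3 genes the treated libraries were far below the vehicle libraries. MRPS2 (−0.87) and MRPL35 (−0.8) followed. MRPL49 reached 167 and 170 CPM (1.01 ± 0.0803, edgeR adjusted p = 4.8e-06) and MRPL39 28.8 and 34.2 CPM (0.61 ± 0.096, edgeR adjusted p = 0.00044). MRPL40 rose by less, from 24.2 and 30.3 to 34.6 and 38.8 CPM (0.4). With the replicate block 9 genes rose (background 36.5%), 8 rose without vehicle replicate 3 and 2 without combination replicate 3. Of those changed by more than 1.5-fold, 24 fell without vehicle replicate 1, 9 without vehicle replicate 3 and 23 without combination replicate 3, and 23 also fell with scaling by library size alone.

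The 3 paralogs of the S18 protein all had values below 0 under nutlin in TPC1, and differences between them were not tested. MRPS18C, at 20 and 24.1 CPM in vehicle, 16 and 17 with nutlin and 16.3 and 18.4 with both drugs, fell in both comparisons (−0.45 and −0.37). MRPS18B, at 69.8 and 83.5 CPM in vehicle, fell to 65.6 and 64.7 CPM under nutlin (−0.27, edgeR adjusted p = 0.035) and was at −0.16 under the combination (edgeR adjusted p = 0.15). MRPS18A, at 39.3 and 51.1 CPM in vehicle and 40.8 and 43.7 CPM under nutlin (−0.13), did not pass the test. In K1 none of the 3 passed the test under nutlin or the combination. MRPL41, a large subunit protein, fell in TPC1 from 71.1 and 80.7 CPM to 59.5 and 59.1 CPM under nutlin (−0.39) and 50 and 54 CPM under the combination (−0.57), and in K1 its libraries held 54.9 and 55.6 CPM in vehicle, 54.6 and 55.6 CPM under nutlin and 54.6 and 53.8 CPM under the combination.

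Set directly against nutlin in TPC1, the combination lowered 3 genes (background 12.9%) and raised none (background 13.2%) with edgeR, with a median of −0.02. At an unadjusted p under 0.05, 4 were lower and 2 higher, and DESeq2 called 2 lower and 0 higher. None passed 1.5-fold (background 5.66% and 6.46%), and the groups did not overlap in 22 lower and 10 higher genes (background 31.7% and 32.5%). MRPS34 fell further, from 54.3 and 53 to 35.9 and 38.8 CPM (−0.51 ± 0.109, edgeR adjusted p = 0.009). MRPL36 (−0.32) and MRPL43 (−0.3) fell less. In the block fit 14 genes fell and 7 rose (background 21.3% and 22.2%), and with the GC and length correction 17 fell and 1 rose (background 18.6% for each). Without nutlin replicate 1 none fell, and the value for MRPS34 was −0.49 with an edgeR adjusted p of 0.06.

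In TPC1 the departure of the combination from the sum of the single-drug effects on the log2 scale (the interaction) had a median of 0.15. Of 77 genes 3 passed the test, all positive, a share near the background of 3.84%. These were MRPL49 (0.59 ± 0.113, edgeR adjusted p = 0.017), MRPL21 (0.56 ± 0.121, edgeR adjusted p = 0.024) and MRPL18 (0.48 ± 0.113, edgeR adjusted p = 0.036). All 3 had point estimates below 0 under GSK2830371 alone, and only MRPL49 was above 1.5-fold (background 2.82%). No gene was negative at an adjusted p under 0.05 (background 4.74%), at an unadjusted p under 0.05 or with DESeq2, and thus none by more than 1.5-fold (background 3.5%). The block fit gave 12 positive and 1 negative (background 13% and 14.1%). The median was 0 without vehicle replicate 3 and 0.02 with the GC and length correction, the 3 calls were all lost without either nutlin library or either GSK2830371 library, and 5 genes were positive without vehicle replicate 1.

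**Figure D3:**
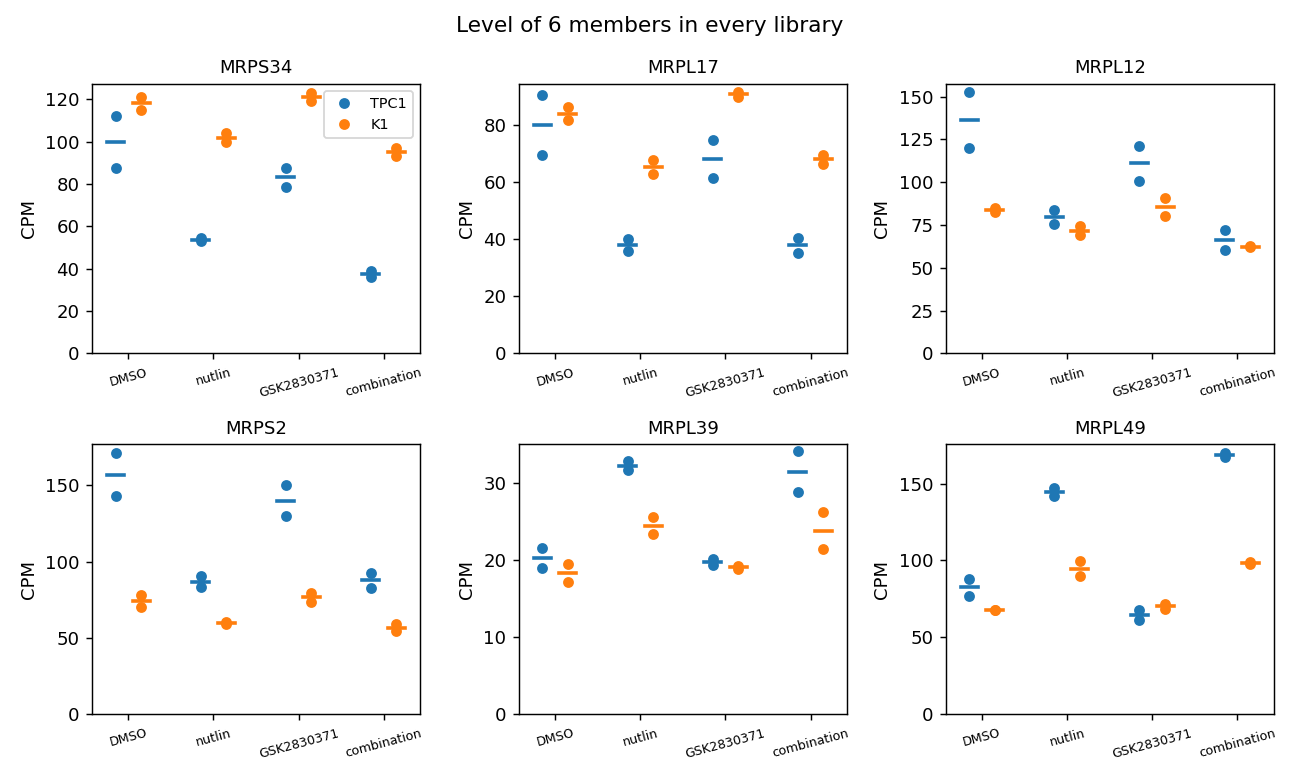
CPM (vertical axis, from 0) of 6 genes by treatment (horizontal axis) in TPC1 and K1; points are libraries and bars are means of 2. MRPS34, MRPL17, MRPL12 and MRPS2 were lower under nutlin and the combination in TPC1, for example MRPS34 at 35.9 and 38.8 CPM under the combination against 87.4 and 112 CPM in vehicle, and MRPL39 and MRPL49 were higher, with smaller steps in K1.

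In K1 the same drugs moved the family less. Under nutlin, 14 of 77 genes fell and 4 rose with edgeR, against 16.6% and 13.5% of 15900 tested genes, and the median was −0.05. The share that fell was thus close to the background. No gene changed by more than 1.5-fold at an adjusted p under 0.05, with edgeR (background 5.43% down and 3.84% up) or with DESeq2, although 16 were lower and 5 higher at an unadjusted p under 0.05. The groups did not overlap in 35 lower and 10 higher genes (background 32.6% and 31.3%). MRPL42, a mitochondria-specific large subunit protein, measured 25.4 and 26.2 CPM in vehicle and 19.7 and 20 CPM under nutlin (−0.38 ± 0.0968, edgeR adjusted p = 0.0092). MRPL17 measured 81.7 and 86.2 CPM in vehicle and 62.8 and 67.8 CPM under nutlin (−0.36 ± 0.0591, edgeR adjusted p = 0.00039), and MRPL37 went from 113 and 120 to 92.2 and 94.6 CPM (−0.32 ± 0.0569, edgeR adjusted p = 0.00071). The groups of these 3 genes did not overlap. Of the 4 that rose, MRPL49 went from 67.5 in both vehicle libraries to 89.9 and 99.5 CPM (0.49 ± 0.0593, edgeR adjusted p = 2.9e-05), MRPL39 from 17.2 and 19.5 to 23.4 and 25.6 CPM (0.41 ± 0.0987, edgeR adjusted p = 0.0059), and MRPL33 (0.23) and MRPL27 (0.19) by less. Refits without a library left 3 falling genes without vehicle replicate 2, 5 without nutlin replicate 1, 8 without vehicle replicate 1 and 9 without nutlin replicate 2, and DESeq2 gave 9. Only 1 rose without vehicle replicate 1 or nutlin replicate 2. MRPL42 and MRPL39 lost their calls in some of these refits, MRPL42 without vehicle replicate 2 or either nutlin library, and MRPL39 without vehicle replicate 1 or nutlin replicate 2.

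GSK2830371 alone in K1 lowered 4 genes (background 10.8%) and raised 1 (background 8.38%), with a median of 0.01. None passed 1.5-fold (background 1.5% and 0.736%), and the groups did not overlap in 15 lower and 19 higher genes (background 26.9% and 31.2%). MRPL42 fell from 25.4 and 26.2 to 16.7 and 21 CPM (−0.46 ± 0.0972, edgeR adjusted p = 0.0055), and the treated libraries differed from each other more than the vehicle libraries did. MRPL13 (−0.25), MRPL35 (−0.23) and MRPL19 (−0.21) fell, and MRPL34 rose (0.22). Across the 77 genes the log2 fold change in this comparison went with GC content (Spearman's rho 0.52) and against transcript length (rho −0.37), values over genes that share the same 4 libraries. In K1 under nutlin and the combination, rho was −0.39 and −0.27 with length, −0.01 and −0.03 with GC content and −0.3 and −0.38 with level. With the GC and length correction none of the 4 genes fell under GSK2830371, and MRPL42 was at −0.2 with an edgeR adjusted p of 0.13. None fell without GSK2830371 replicate 1, and 1 fell without vehicle replicate 2.

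The combination in K1 lowered 24 genes and raised 3, against a background of 22.2% and 21%, with a median of −0.09. No gene passed 1.5-fold (background 8.09% and 7.62%), with edgeR or DESeq2, and the groups did not overlap in 44 lower and 9 higher genes (background 35.8% and 36.9%). MRPL42, at 17.5 and 19.5 CPM, was again the most reduced (−0.48 ± 0.0968, edgeR adjusted p = 0.0011), followed by MRPL35, from 45.4 and 49.5 to 35 and 34.1 CPM (−0.46 ± 0.0666, edgeR adjusted p = 8.1e-05), and by MRPL12, from 82.7 and 84.9 to 62.6 and 62 CPM (−0.43 ± 0.066, edgeR adjusted p = 0.00014). In all 3 the treated libraries were below the vehicle libraries. MRPL49 rose to 97.7 and 98.9 CPM (0.54 ± 0.0591, edgeR adjusted p = 6.1e-06), MRPL39 to 21.5 and 26.2 CPM (0.38) and MRPL18 from 56.2 and 60.6 to 68.2 and 66.6 CPM (0.21). Without vehicle replicate 2 or combination replicate 2, 13 genes fell, and without vehicle replicate 1 or combination replicate 2 only 1 rose. Against nutlin, the combination lowered MRPL15 alone (background 6.53%), from 59.8 and 60.9 to 50.8 and 50.7 CPM (−0.25 ± 0.0621, edgeR adjusted p = 0.019), a call that was lost without any of these 4 libraries, and it raised none (background 5.89%). None passed 1.5-fold (background 1.52% and 1.16%), 6 were lower and 1 higher at an unadjusted p under 0.05, DESeq2 called 1 lower, and the groups did not overlap in 33 lower and 9 higher genes (background 27.3% and 27.7%). No interaction passed the test in K1 with edgeR (background 2.83% negative and 5.24% positive) or DESeq2, with 5 genes negative and 3 positive at an unadjusted p under 0.05, and none was above 1.5-fold (background 0.654% and 1.79%).

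The lines were then compared directly, and unlike the comparisons above those of TPC1 and K1 share no libraries. Under nutlin, 14 genes fell in both lines, which is 14 of the 44 that fell in TPC1 and all 14 that fell in K1. Of 14509 genes tested in both lines, 14.4% fell in both, and 80.9% of those that fell in K1 also fell in TPC1. The 14 were MRPL3, MRPL12, MRPL17, MRPL35, MRPL37, MRPL42, MRPL57, MRPS2, MRPS11, MRPS25, MRPS26, MRPS27, MRPS30 and MRPS34. MRPL27, MRPL39 and MRPL49 rose in both, 3 of 5 in TPC1 and 3 of 4 in K1, where 10.4% of all genes rose in both and 73.3% of those that rose in K1 also rose in TPC1. Under the combination 18 fell in both (of 43 and 24) and 2 rose in both (of 5 and 3), these being MRPL39 and MRPL49, where 18.1% and 15.4% of all genes did, and 77.3% and 70% of those called in K1 were also called in TPC1. In neither comparison did a gene fall in one line and rise in the other.

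**Figure D4:**
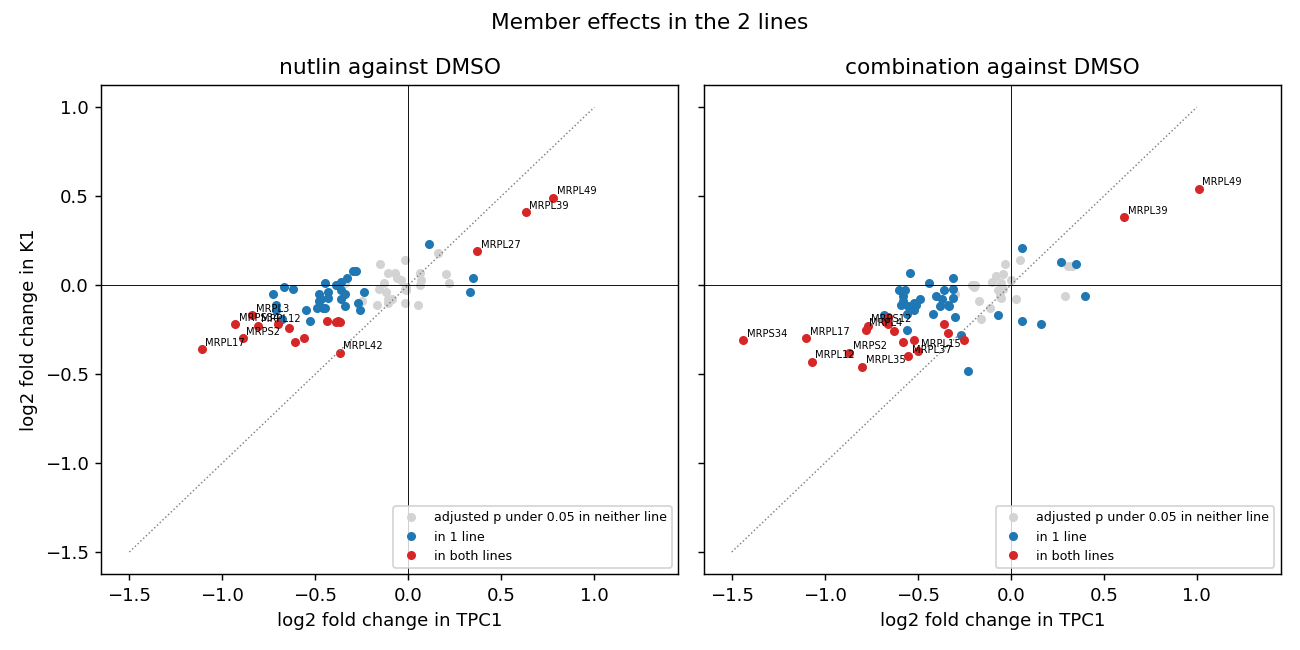
Log2 fold change of the 77 genes in K1 (vertical axis) against TPC1 (horizontal axis) for nutlin and for the combination, coloured by whether the adjusted p was under 0.05 in neither line, in 1 line or in both, with a dotted line where the effects would be equal. Most points lie left of 0 and above the dotted line, and MRPL39 and MRPL49 lie apart at upper right, MRPL49 at 0.78 in TPC1 and 0.49 in K1 under nutlin.

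Tested as a difference between lines with the 16 libraries fitted jointly (16738 genes), the nutlin effect was higher in K1 than in TPC1 for 19 genes and lower for 2, against a background of 14.6% and 16.5%, with a median difference of 0.19. For 5 genes the difference was above 1.5-fold (background 8.73%, and 10.5% in the other direction, where there were none), and in all of them the TPC1 libraries fell more. These were MRPL17 (0.71 ± 0.164, edgeR adjusted p = 0.0032), MRPS34 (0.68 ± 0.136, edgeR adjusted p = 0.0011), MRPS6 (0.65 ± 0.147, edgeR adjusted p = 0.0027), MRPL3 (0.64 ± 0.184, edgeR adjusted p = 0.014) and MRPL21 (0.63 ± 0.128, edgeR adjusted p = 0.0013). MRPL17 started at like levels in the lines, 69.6 and 90.4 CPM in TPC1 and 81.7 and 86.2 CPM in K1. MRPL10 (−0.4) and MRPL49 (−0.32) were the genes whose rise was larger in TPC1. Under the combination 20 genes were higher in K1 and 3 lower (background 18.9% and 19.7%), 4 of the 20 by more than 1.5-fold (background 11.9%, and 13.8% in the other direction, where there were none), namely MRPS34 (1.1 ± 0.136, edgeR adjusted p = 8.5e-06), MRPL17 (0.77), MRPL12 (0.62) and MRPL55 (0.59). With the replicate block 32 genes were higher in K1 under nutlin (background 18.2%) and 6 lower under the combination (background 23.2%). Without TPC1 vehicle replicate 3 no gene passed 1.5-fold under nutlin and 1 did under the combination, whereas without replicate 1 there were 10 and 11. Of differences of any size under nutlin, 33 were higher in K1 without TPC1 vehicle replicate 1 and 8 without K1 vehicle replicate 1, and under the combination 34 and 12.

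In vehicle alone, K1 had 44 genes lower and 10 higher than TPC1 (background 33% and 34.7%), 17 and 2 of them by more than 1.5-fold (background 21.2% and 25%), with a median of −0.29. The lines did not overlap in 48 lower and 11 higher genes (background 39.6% and 42.2%). MRPS2 measured 143 and 171 CPM in TPC1 and 70 and 77.9 CPM in K1 (−1.09 ± 0.0992, edgeR adjusted p = 5.1e-08). MRPL43 measured 75.4 and 88.5 CPM and 40.4 and 40.2 CPM (−1.03 ± 0.09, edgeR adjusted p = 3.1e-08), and MRPL32 44 and 55.7 CPM and 24.2 and 26.5 CPM (−0.98 ± 0.111, edgeR adjusted p = 7.4e-07). Each was lower in both K1 libraries than in either TPC1 library, and the gap between the lines was larger than that between libraries of a line. MRPL40, at 24.2 and 30.3 CPM in TPC1 and 41.1 and 44.3 CPM in K1 (0.64), and MRPL48 (0.6) were higher in K1, and MRPL53 (0.48) by less than 1.5-fold. MRPL42 (−0.67) and MRPL12 (−0.71) were also lower. Every gene of the family was lower in K1 on 5 of the chromosomes that hold at least 2 of them, namely 6 genes on chromosome 6, 4 on 7, 3 on 8, 3 on 9 and 2 on 10, with medians of −0.58, −0.8, −0.89, −0.58 and −0.92. All tested genes of these chromosomes had medians of −0.19, 0.04, −0.32, −0.24 and −0.6, with 40.1%, 33.8%, 48.9%, 46.8% and 56.7% lower. The 5 chromosomes were picked by these values. On the other chromosomes with at least 2 genes of the family, its medians ran from −0.47 on chromosome 4 to 0.14 on chromosome 15. Without TPC1 vehicle replicate 3, 11 genes were lower by more than 1.5-fold, and without replicate 1 none was higher by that much and 5 were higher at any size.

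Several of these genes start head to head with a neighbour on the other strand. In RefSeq, 22 of 68 (32.4%) had such a neighbour within 1000 bases, compared with 18.3% of protein-coding genes, and for 17 (25%, against 10.2%) it was protein-coding. Some neighbours changed far more than the ribosomal gene. SKA3, a kinetochore gene 106 bases from MRPL57, fell by 4.17 under nutlin in TPC1 (log2, edgeR adjusted p = 3.1e-08), whereas MRPL57 fell by 0.39. EME1, for a subunit of a DNA repair nuclease, lies 45 bases from MRPL27 and fell by 3.24, whereas MRPL27 rose by 0.37. NCAPD2, a condensin subunit 840 bases from MRPL51, fell by 2.15 and MRPL51 by 0.3. In K1 the neighbours fell by 1.12, 1.39 and 0.86. MRPL49 and FAU, which encodes a cytosolic ribosomal protein fused to a ubiquitin-like part, start 49 bases apart. Under nutlin in TPC1, MRPL49 rose by 0.78, and FAU was at 0.15 ± 0.0966 (edgeR adjusted p = 0.21). Under the combination both rose, MRPL49 by 1.01 and FAU by 0.33 (edgeR adjusted p = 0.013), and in K1 FAU was at 0.06 and 0.03. MRPL46 and MRPS11, both of this family and 320 bases apart, both fell under nutlin in TPC1 (−0.53 and −0.38) and under the combination in K1 (−0.26 and −0.28). MRPS11 did not pass the test under the combination in TPC1 (−0.27, edgeR adjusted p = 0.061), nor MRPL46 under nutlin in K1 (−0.2, edgeR adjusted p = 0.056). MRPS12 and SARS2, a mitochondrial seryl-tRNA synthetase gene 181 bases away, both fell under the combination in TPC1 (−0.77 and −0.67) and in K1 (−0.23 and −0.25). Under nutlin SARS2 was at −0.24 in TPC1 (edgeR adjusted p = 0.057), and in K1 MRPS12 was at −0.14 (edgeR adjusted p = 0.21). PPP1R10, 597 bases from MRPS18B, rose by 1.04 under nutlin in TPC1 while MRPS18B fell by 0.27. Counting was by strand, so that reads of such pairs are kept apart.

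**Figure D5:**
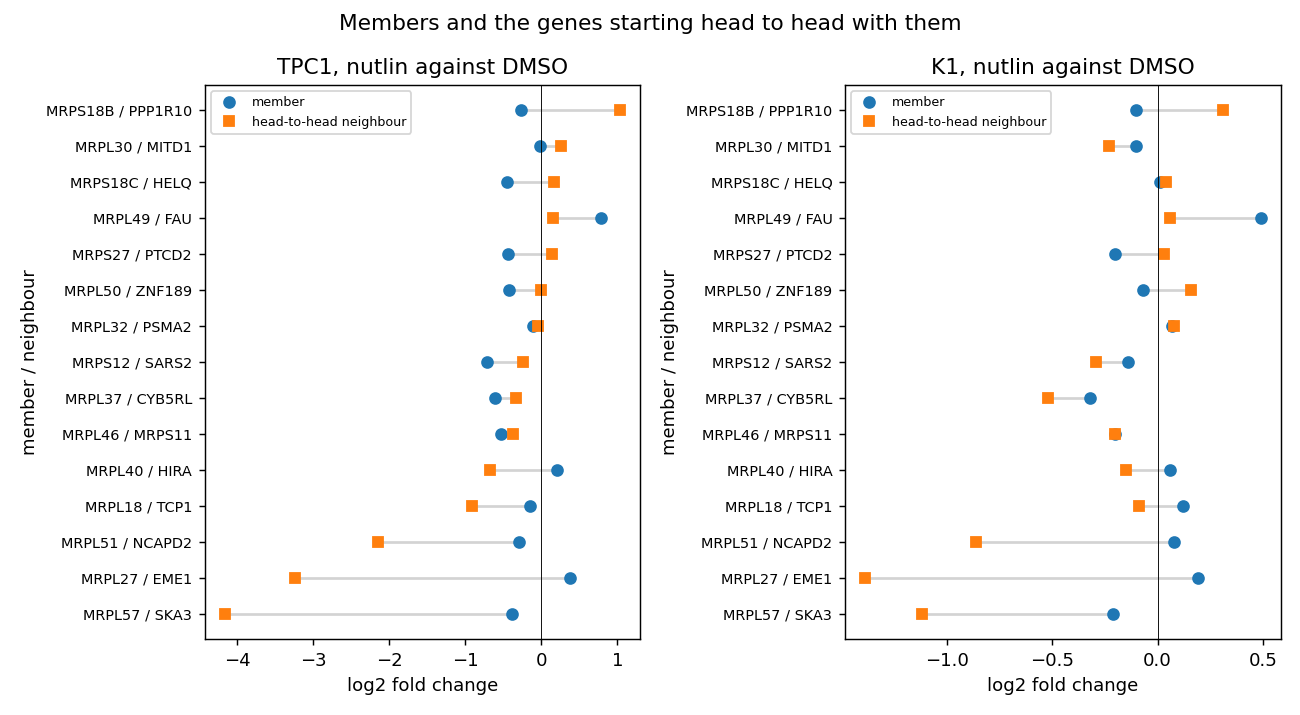
Log2 fold change under nutlin (horizontal axis, with its own range in each line) of genes of the family (circles) and of the protein-coding gene that starts head to head with each (squares), for 15 pairs in TPC1 and K1. SKA3, EME1 and NCAPD2 lie far left, at −4.17, −3.24 and −2.15 in TPC1, while their partners MRPL57, MRPL27 and MRPL51 lie between −0.39 and 0.37.

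The effects were also set beside the motifs in the promoter windows. In TPC1 under nutlin the 28 genes with an ETS motif had a median of −0.17, with 12 lower and 2 higher, and the 40 without had a median of −0.38, with 28 lower and 2 higher. With or without a YY1 motif the median was −0.34 in both sets of 23 and 45 genes. The 7 genes with an NRF1 motif had a median of −0.36 against −0.34 in the others, although MRPL17 is among them. The 6 genes with an E-box had a median of −0.37 and the 62 without −0.34. For CCAAT the medians were −0.35 in 20 genes with it and −0.34 in 48 without. Under the combination in TPC1, which shares its vehicle libraries, the medians with and without an ETS motif were −0.21 and −0.42, with 13 of 28 and 25 of 40 lower. In K1 they were −0.03 and −0.08 with nutlin alone, and −0.09 and −0.11 with both drugs. These are descriptions without a test.

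Other genes of mitochondrial translation were compared with the same backgrounds in TPC1 (28.3% falling and 27.3% rising under nutlin, 32.1% and 32% under the combination). Of 6 further ribosome components named outside the MRPL and MRPS series (DAP3, PTCD3, CHCHD1, AURKAIP1, ICT1 and GADD45GIP1), 3 fell and none rose under nutlin, and 4 fell and 1 rose under the combination. PTCD3 changed by −0.82 and −1.12, AURKAIP1 by −0.54 and −0.74 and GADD45GIP1 by −0.56 and −0.72 under nutlin and the combination. Of 22 assembly and rRNA modification genes, 14 fell and 1 rose with nutlin, and with both drugs 14 fell and 3 rose. Under nutlin they were led by MTERFD1 (MTERF3, a mitochondrial transcription and assembly factor) at −1.59 ± 0.157, the rRNA methyltransferases FTSJ2 (MRM2) at −1.12 and MRM1 at −0.85, and RBFA, a small subunit assembly factor, at −0.91. C1QBP (−0.73), RNMTL1 (−0.67) and FASTKD2 (−0.6) also fell. Of 13 translation factors 4 fell and 2 rose with nutlin, and with both drugs 4 fell and 4 rose, shares near the background. The release factor gene C12orf65 fell by 1.11 under nutlin, whereas the initiation factor gene MTIF3 rose by 0.84 under nutlin and 0.99 under the combination, and the elongation factor gene GFM1 fell by 0.6 and GUF1 rose by 0.9 under the combination.

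Of 11 genes for mitochondrial DNA transcription and maintenance, 8 fell under nutlin and 7 under the combination in TPC1, and none rose. C10orf2, the replicative helicase Twinkle, fell by 1.49 ± 0.0888 (edgeR adjusted p = 1.1e-06) under nutlin, TFAM, which packages mitochondrial DNA, by 0.76, and TFB2M by 0.63. Of 9 tested nuclear regulators of mitochondrial genes, 6 fell and 1 rose in each comparison. MYC fell by 1.37 ± 0.0977 under nutlin, the coactivator PPRC1 by 1.47 ± 0.0793, NRF1 by 1.09 ± 0.0843 and GABPB1, a GABP subunit, by 0.82 ± 0.0819, and ESRRA rose by 0.36. YY1 fell by 0.55 under nutlin and 0.84 under the combination. In K1, 16.6% of all tested genes fell and 13.5% rose under nutlin, and 22.2% and 21% did under the combination. The same list in K1 had 6 of 10 lower and 1 higher in each comparison, with MYC at −1 ± 0.126 under nutlin. There, 6 of 22 assembly genes fell under nutlin and 7 under the combination, led by MTERFD1 at −0.65 in each, and 4 of 11 mitochondrial DNA genes fell in each, while 1 (MTERF, 0.34) rose under the combination. Translation factors in K1 had 1 lower and 1 higher under nutlin and 4 lower and 2 higher under the combination, and the 6 further components had 0 lower and 1 higher, then 2 lower and 1 higher.

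The comparison families behaved otherwise. Of 78 tested cytosolic ribosomal protein genes in TPC1, 40 rose and none fell under nutlin (median 0.3), and 70 rose and none fell under the combination (median 0.53). In K1, 2 rose and 1 fell under nutlin and 3 rose and 1 fell under the combination, with medians of 0.02 and −0.01 that became −0.03 with the GC and length correction and 0.02 with library size alone. Of 76 tested respiratory chain subunits in TPC1, 23 rose and 11 fell under nutlin (median 0.15), and 16 rose and 15 fell under the combination (median −0.01, or 0.01 with DESeq2 size factors). In K1, of 75 tested, 6 rose and 1 fell under nutlin and 10 rose and 8 fell under the combination. With the GC and length correction the respiratory median under nutlin in TPC1 was 0.03, and that of the cytosolic genes 0.25, while that of the mitochondrial ribosomal genes was −0.27.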

How the data were processed

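The study measured polyadenylated RNA of TPC1 and K1 cells by stranded single-end sequencing. The authors aligned reads to GRCh37 with TopHat2 2.0.13, discarded poorly mapped reads and assigned the rest to exons of genes by strand with HTSeq 0.6.1, and the deposited values are these raw counts per gene symbol. Reads shared with near-identical copies such as processed pseudogenes are lost at the mapping filter, which can lower the counts of some of these genes.

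Genes above 0.1 CPM in at least 2 libraries entered edgeR 4.0.16 (R 4.3.3) with TMM scaling and the quasi-likelihood test, 1 fit per line over 8 libraries and 1 over all 16 for comparisons between lines. P values were adjusted by Benjamini-Hochberg over all tested genes in each of 13 comparisons. Genes are said to rise or fall at an adjusted p under 0.05, and those that also changed by more than 1.5-fold were counted separately. Counts at an unadjusted p, counts by DESeq2 and counts in refits without 1 library have no share over all tested genes beside them. SE was taken as the absolute log2 fold change over the square root of F. CPM used TMM scaling of all 16 libraries. The treatments in a fit shared 1 estimate of the spread, with 4 residual degrees of freedom for each line and 8 for both. The method was also run on counts simulated independently for each library. These hold no replicate correlation, so they cannot show how the fit behaves with paired libraries. GC content and length came from the reference annotation, which matched 83.3% of symbols and is not the one the authors used.

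Genes named were those changed by more than 1.5-fold (the 5 largest where over 8 were called in a direction), the 3 largest changes in each direction of each comparison, the 3 highest and lowest per kilobase, 6 genes of fixed interest (MRPS18A, MRPS18B, MRPS18C, MRPL12, MRPL41 and MRPS36), and called genes of the further lists. Genes shared by the lines, head-to-head neighbours and a few others of intermediate change were named after their values were seen. The members and lists were chosen with earlier results of these data known. Counts, SEs and adjusted p values come from fits without a replicate term. Replicate numbers pair the TPC1 libraries, since deviations from group means correlated at r from 0.435 to 0.591 in all 6 pairs of treatments over 12308 genes (in K1 r ran from −0.318 to 0.331), and counts with the number as a block are given where they differ by over 1.5 times. Alternatives were other scalings, filters, DESeq2 1.42.0, the compared groups alone, a replicate block, a GC and length correction, another gene list and each library left out.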

Additional observations from a re-analysis of the deposited data

Results flagged for a closer look

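Some effects differed between conditions by a test of the difference itself (edgeR, adjusted p under 0.05). In TPC1, 1 gene, MRPL49, departed upward by more than 1.5-fold from the sum of the single-drug effects (background 2.82%), by 0.59 on the log2 scale. The nutlin effect differed between the lines by more than 1.5-fold for 5 genes, all with values less negative in K1 (background 8.73% higher in K1). The differences were 0.71 for MRPL17, 0.68 for MRPS34, 0.65 for MRPS6, 0.64 for MRPL3 and 0.63 for MRPL21. The combination effect did so for 4 genes (background 11.9%), at 1.1 for MRPS34, 0.77 for MRPL17, 0.62 for MRPL12 and 0.59 for MRPL55. As a share of the family, each of these counts was below the background given beside it. By number of genes, the family thus did not stand out above all tested genes in these fits. MRPL49 in the interaction and MRPL55 in the combination effect, each at 0.59, were close to the 1.5-fold limit. All of these counts depended on single libraries, as given above.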

How the results depend on the processing

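Of the medians, counts and summed levels recomputed with all libraries, 567 stayed within the replicate spread or within 1.5 times their count and 85 did not. Medians of the family kept their sign under every scaling, except that of GSK2830371 in K1 (0.01), which was 0 or −0.03. With 2 libraries a group, 1 library decides many counts, and the cause of the changes below was not tested. Genes rising or falling are at an adjusted p under 0.05.

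In K1 under GSK2830371, 1 gene rose, against 0 with DESeq2 size factors, DESeq2 or the replicate block and 2 without a filter, with the GC and length correction or with that and the block; of 4 falling, 0 were left with the correction, with or without the block. For the combination against nutlin in K1, 0 higher became 1 with library size alone, the correction or the other gene list, and 1 lower became 2 with DESeq2 size factors, filterByExpr, no filter, the other list or block and correction, and 3 with the correction or the compared groups alone. The K1 interaction median of −0.07 was −0.02 with library size and −0.01 with the correction, with or without the block, and 1 gene was higher with library size and 1 lower with the other list. Of 14 genes falling under nutlin in K1, DESeq2 gave 9, and the K1 combination sum of 3590 CPM was 3701 with library size.

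In TPC1 under GSK2830371, 2 genes fell, against 1 with DESeq2 size factors, 0 with library size or the compared groups alone, 5 without a filter, 32 with the replicate block, 9 with the correction and 30 with both, where 2 rose. Under the combination, library size gave 1 higher and 23 lower by more than 1.5-fold, and 8 genes rose without a filter and 9 with the replicate block. Against nutlin, the median was −0.07 with the correction, with or without the block, 7 genes rose and 14 fell with the replicate block, 1 and 17 with the correction and 4 and 25 with both. In the TPC1 interaction, 0 were above 1.5-fold with library size, no filter or the correction, with or without the block, while 12 were higher and 1 lower with the replicate block, 11 and 7 with both and 3 lower with the correction. Under nutlin 8 rose with the correction and 12 with both. In all other comparisons the replicate block kept counts within 1.5 times, apart from those of the line differences below.

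For the combination effect between lines, the median of 0.18 was 0.2 with DESeq2 size factors, filterByExpr or DESeq2, 0.29 with library size, 0.14 without a filter and 0.23 with the correction, with or without the block. The 4 genes above 1.5-fold became 10 with library size, 2 without a filter and 9 with the correction, with or without the block. The 20 higher became 36, 32 and 41 with library size, the correction and both block and correction, and the 3 lower became 5 without a filter, 6 with the replicate block or the correction and 8 with both. For the nutlin effect, the 5 above 1.5-fold became 10 with library size or filterByExpr, 8 with the correction, with or without the block, and 9 with the compared groups alone. The 19 higher became 31 with library size, 32 with the replicate block and 30 with block and correction, and the 2 lower became 6 with the correction, with or without the block, and 1 with the compared groups alone.

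Leaving out 1 library at a time, in fits without a replicate term, gave these ranges. No share over all tested genes is given for them, so whether the family shifted more than other genes is not known. Under nutlin in TPC1 the median was −0.4 to −0.16, with 28 to 47 falling, 2 to 7 rising, and 7 to 19 and 1 to 2 above 1.5-fold. Under GSK2830371 in TPC1 it was −0.25 to −0.04 with 0 to 1 falling. Under the combination in TPC1 it was −0.42 to −0.2, with 2 to 8 rising, and 9 to 24 lower and 1 to 2 higher by more than 1.5-fold. Against nutlin it was −0.08 to 0.05 with 0 to 4 falling and 0 to 1 rising, and for the interaction 0 to 0.24 with 0 to 5 higher, 0 to 3 above 1.5-fold. In K1 nutlin gave a median of −0.08 to −0.02 with 3 to 14 falling and 1 to 4 rising, GSK2830371 0 to 4 falling, 0 to 1 rising and 0 to 1 lower by more than 1.5-fold, the combination 13 to 26 falling and 1 to 3 rising, the combination against nutlin 0 to 3 falling, and the interaction a median of −0.1 to −0.03 with 0 to 1 each way. Between lines in vehicle, 11 to 23 were lower and 0 to 3 higher by more than 1.5-fold, and 5 to 14 higher. The nutlin effect differed by a median of 0.08 to 0.31, with 8 to 33 higher, 0 to 5 lower and 0 to 10 above 1.5-fold, and the combination effect by 0.03 to 0.32, with 10 to 34 higher, 1 to 7 lower, 1 to 11 higher and 0 to 3 lower by more than 1.5-fold.

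Single genes that changed sign were these. Under GSK2830371 in TPC1, MRPL34 ranged from −0.01 without vehicle replicate 1 to 0.4 without vehicle replicate 3. Under the combination in TPC1, MRPS36 was 0.09 with the correction, 0.08 with block and correction and from −0.15 to 0.03 without 1 library, and MRPS18A 0.14 without vehicle replicate 3 and 0.01 without combination replicate 1. In K1, MRPL41 was 0 with library size, MRPS36 0.01 with library size and 0.11 with the correction and from −0.06 to 0.01 without 1 library, MRPS18C 0.02 with the correction, and MRPS18A from −0.03 to 0.04 without 1 library. In the K1 interaction, MRPL19 was −0.14 and MRPL13 0 with the correction.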
